A study of Homo sapiens with 12 samples.

Results

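Iron transport and storage in liver-derived cells was followed through 10 genes, chosen by their roles in taking up, storing, exporting and sensing iron and found by symbol in the table of expression values: TF, TFRC, TFR2, STEAP3, SLC11A2, FTH1, FTL, SLC40A1, HAMP and HFE, each matching 1 of the 60664 genes listed. The values come from RNA sequencing of Huh7 and MHCC97H, 2 established human hepatocellular carcinoma cell lines in which the study raised the level of the microRNA miR-628-3p. Huh7 cells had been transfected with a miR-628-3p mimic, a synthetic RNA that acts as the mature microRNA, or with a control mimic. MHCC97H cells carried the construct pGreen-628 or an empty vector. Each of the 4 groups has 3 libraries. The labels call the genotype of the mimic and pGreen-628 cells miR-628-3p overexpression and that of both control groups WT. They name no other treatment, no time and no promoter for the construct, and do not say whether the cells were a clone or a pool or whether libraries of a group were separate cultures. P-values therefore measure the spread between these libraries, which may be technical.

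Cells take up iron bound to transferrin through the transferrin receptor, reduce it in the endosome, carry it into the cytosol, and store the surplus in ferritin or export it through ferroportin. Iron regulatory proteins bind hairpins called iron-responsive elements when cellular iron is low. Bound in the 3′ UTR of the transferrin receptor mRNA they protect it from decay, and bound in the 5′ UTR of ferritin and ferroportin mRNAs they block translation. Hepatocytes are also the main source of plasma transferrin and of hepcidin, the hormone that removes ferroportin from cell surfaces.

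The microRNA and the elements that tie these genes together are printed first. The mature miR-628-3p, from RefSeq on GRCh38.p14 at chr15:55372954-55372974 on the minus strand, has its seed, bases 2 to 8, in capitals.
hsa-miR-628-3p: uCUAGUAAgaguggcagucga
The match to this seed, TTACTAG on the sense strand, was looked for in the longest annotated 3′ UTR of each gene in GENCODE release 29 (GRCh38). It occurred in 1301 of 19133 genes, or 6.80%. Of the 10 iron genes only SLC40A1 had it, once, starting at base 25 of a 3′ UTR of 1299 bases, at chr2:189561836-189561864 on the minus strand. The match is in capitals.
SLC40A1 3′ UTR: ttgctatcctgTTACTAGattatatagag

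Iron-responsive elements were sought on the sense strand as a C, 5 stem bases, the loop CAGTGN, and 5 bases that pair with the stem, G-T pairs allowed. This pattern occurred in 29 of 19032 annotated 5′ UTRs (0.152%) and in 122 of 19133 3′ UTRs (0.638%). The TFRC 3′ UTR had 4 matches, the most in any 3′ UTR searched and a number reached by no other gene. FTH1, FTL and SLC40A1 had 1 match each in the 5′ UTR. TF had 1 match, inside an annotated 3′ UTR of 18020 bases. The loops are in capitals in the following lines, which show how alike the stems of TFRC are and how alike the 2 ferritin elements are.
TFRC 3′ UTR, chr3:196050979-196051007, minus strand: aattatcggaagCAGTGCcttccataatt
TFRC 3′ UTR, chr3:196050575-196050603, minus strand: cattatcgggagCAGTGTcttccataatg
TFRC 3′ UTR, chr3:196050510-196050538, minus strand: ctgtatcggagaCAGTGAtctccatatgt
TFRC 3′ UTR, chr3:196050463-196050491, minus strand: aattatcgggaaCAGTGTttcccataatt
FTH1 5′ UTR, chr11:61967574-61967602, minus strand: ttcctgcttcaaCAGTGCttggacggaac
FTL 5′ UTR, chr19:48965335-48965363, plus strand: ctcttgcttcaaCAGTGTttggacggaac
SLC40A1 5′ UTR, chr2:189580661-189580689, minus strand: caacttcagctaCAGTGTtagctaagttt
A match is a description of the letters and does not show that a protein or microRNA acts there. The pattern allows no unpaired base among the 5 pairs and no other loop. A gene without a match may therefore still hold an element of another form.

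The libraries hold between 16472932 and 19578875 counted reads, and between 12456 and 12826 genes reached 1 FPKM, the deposited unit, which scales reads to exon length and to the library's total. All 8 hepatocyte markers reached a mean of 1 FPKM in both Huh7 groups, 7 did in the pGreen-628 group and 6 in the vector group. In MHCC97H, the liver label is only weakly borne out: the 8 markers summed to 57.1 to 62.1 FPKM in pGreen-628 libraries and 33.7 to 37.0 FPKM in vector libraries, against 12108 to 13452 FPKM in Huh7 mimic libraries and 11066 to 11981 FPKM in Huh7 control libraries. Erythroid markers, of cells that handle much iron, reached 1 FPKM in no group. Libraries 2 and 3 of pGreen-628 differed most within a group, with a chi-square per degree of freedom over genes of 34.5. The other pairs within groups lay between 1.93 and 12.5. Library 1 of pGreen-628 was at 8.89 from library 2 and 12.5 from library 3. The microRNA cannot be read in these libraries: MIR628 had 0 reads in all 12. CCPG1, its host gene, averaged 6.33 FPKM in mimic libraries and 4.54 FPKM in control libraries of Huh7, and 11.8 FPKM with pGreen-628 and 16.6 FPKM with the vector in MHCC97H, neither difference passing the test (adjusted p = 0.0704 and 0.155, limma). After a correction for GC content and length, CCPG1 was called lower in MHCC97H (log2 fold change -0.37, adjusted p = 0.0246), and its MHCC97H minus Huh7 difference was called too, at -0.90 before the correction and -0.61 after it (adjusted p = 0.0393 and 0.0217).

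In Huh7, TFRC mRNA was higher and the mRNAs of both ferritin chains were lower with the miR-628-3p mimic. TFRC rose 1.14-fold, FTH1 fell by 0.32 and FTL fell by 0.28 on the log2 scale, and the other 7 genes did not pass the test. That is 3 of 10 genes called by limma on log2(FPKM + 1), at a Benjamini-Hochberg adjusted p under 0.05 over all 12508 genes tested. The share called among all genes was 21.1%, with 6.75% higher and 14.4% lower, so the count is near that of the whole transcriptome. All 10 genes passed the filter, a mean of at least 1 FPKM over the 6 libraries. The median log2 fold change of the 10 genes was -0.01, against -0.05 over all genes tested.

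**Figure D1:**
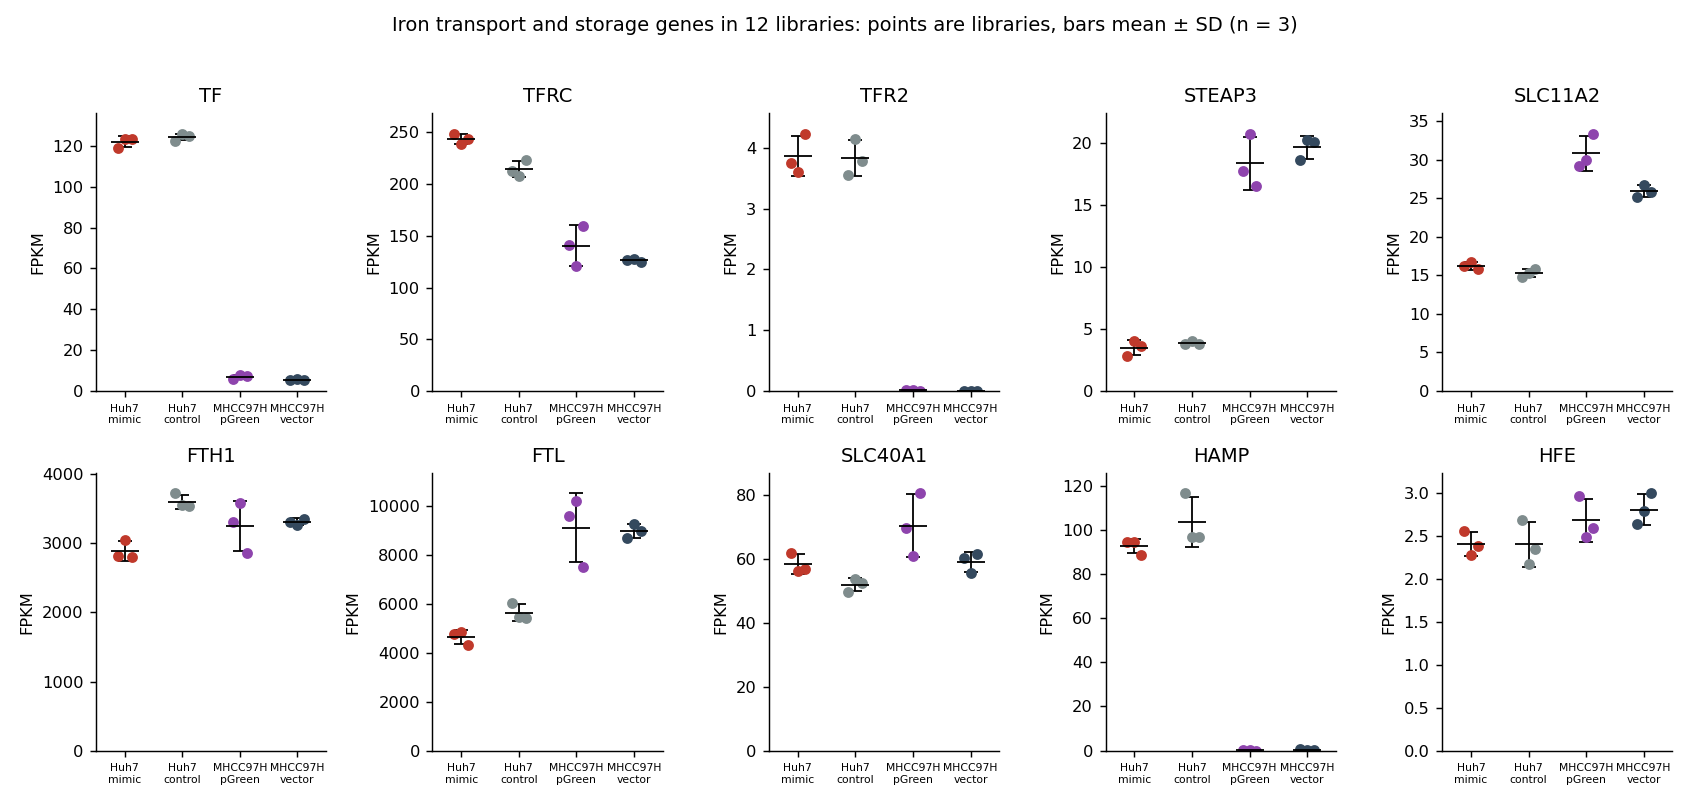
FPKM of the 10 iron genes (y axis, linear, from 0) in the 4 groups (x axis), with 1 point per library and bars for mean ± SD (n = 3). In Huh7 the mimic libraries lie above the controls for TFRC (239 to 249 against 208 to 223 FPKM) and below them for FTH1 and FTL, and TFR2 and HAMP are near 0 in MHCC97H.

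Uptake begins with TFRC (ENSG00000072274, chr3:196027183-196082096, minus strand, on GRCh38.p13 as for all gene positions given here), transferrin receptor 1, which brings iron-loaded transferrin into the cell. It stood at 249, 239 and 244 FPKM in mimic libraries and at 212, 208 and 223 FPKM in control libraries. The groups did not overlap, and the lowest mimic library was above the highest control. Groups that do not overlap were found for 5 of the 10 genes, 2 with the mimic higher and 3 with it lower, and for 48.8% of all genes tested, 19.5% higher and 29.3% lower. The log2 fold change was 0.18 (SE 0.049, 95% interval 0.07 to 0.30, adjusted p = 0.0393).

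TF (ENSG00000091513, chr3:133746040-133796641, plus strand), plasma transferrin, the carrier itself, had 119, 124 and 124 FPKM in mimic libraries and 123, 126 and 125 FPKM in control libraries. The groups overlapped, and the log2 fold change was -0.03 (SE 0.044, adjusted p = 0.681). The table divides TF reads by an exon length of 20166 bases, most of it the long annotated 3′ UTR. Its level per length and its length-corrected fold changes are therefore sensitive to that annotation. TFR2 (ENSG00000106327, chr7:100620416-100642779, minus strand), transferrin receptor 2, which senses loaded transferrin in hepatocytes, had 3.75, 3.61 and 4.23 FPKM in mimic libraries and 3.56, 4.14 and 3.79 FPKM in control libraries (adjusted p = 0.939).

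Past the receptor, STEAP3 reduces iron in the endosome and SLC11A2, also called DMT1, moves it into the cytosol. STEAP3 (ENSG00000115107, chr2:119223831-119265652, plus strand) had 2.84, 4.08 and 3.61 FPKM in mimic libraries and 3.79, 4.06 and 3.76 FPKM in control libraries. SLC11A2 (ENSG00000110911, chr12:50979401-51028566, minus strand) had 16.2, 16.7 and 15.8 FPKM in mimic libraries and 14.8, 15.3 and 15.9 FPKM in control libraries. Both pairs of groups overlapped and neither gene passed the test (adjusted p = 0.405 for STEAP3 and 0.290 for SLC11A2, limma).

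Ferritin is a shell of heavy chains, which oxidise iron, and light chains, which help it mineralise. FTH1, the heavy chain (ENSG00000167996, chr11:61959718-61967634, minus strand), had 2817, 3054 and 2803 FPKM in mimic libraries and 3723, 3551 and 3534 FPKM in control libraries. FTL, the light chain (ENSG00000087086, chr19:48965309-48966879, plus strand), had 4766, 4850 and 4314 FPKM in mimic libraries and 6039, 5488 and 5433 FPKM in control libraries. Every mimic library was below every control library for both chains. The log2 fold change was -0.32 for FTH1 (SE 0.068, 95% interval -0.48 to -0.16, adjusted p = 0.0297) and -0.28 for FTL (SE 0.082, 95% interval -0.47 to -0.09, adjusted p = 0.0458).

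Export runs through SLC40A1, ferroportin (ENSG00000138449, chr2:189560590-189583758, minus strand), the only known iron exporter of mammalian cells and the only gene of the set with the seed match shown above. It had 61.9, 56.1 and 56.9 FPKM in mimic libraries and 49.6, 53.6 and 52.3 FPKM in control libraries, so the groups did not overlap and the mimic libraries were the higher ones. The log2 fold change of 0.17 did not pass the test (SE 0.057, adjusted p = 0.0667); with quantile normalization it did (0.23, adjusted p = 0.0318). HAMP, hepcidin (ENSG00000105697, chr19:35280716-35285143, plus strand), had 94.6, 94.5 and 88.8 FPKM in mimic libraries and 117, 96.8 and 96.9 FPKM in control libraries. Its groups also did not overlap, with the mimic libraries lower, and it too missed the threshold (log2 fold change -0.15, adjusted p = 0.171). HFE (ENSG00000010704, chr6:26087281-26098343, plus strand), a partner of the transferrin receptors that is mutated in hereditary hemochromatosis, averaged 2.40 ± 0.140 FPKM in mimic libraries and 2.40 ± 0.261 FPKM in control libraries (SD, n = 3 each).

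Set against each other inside a library, where a scale factor shared by all its genes cancels, receptor and ferritin moved apart in Huh7. TFRC stood at 32.8, 30.2 and 34.2 FPKM per 1000 FPKM of FTH1 and FTL together in mimic libraries, and at 21.8, 23.0 and 24.9 in control libraries. The ratio of FTH1 to FTL, by contrast, overlapped: it was 0.591, 0.630 and 0.650 in mimic libraries and 0.616, 0.647 and 0.650 in control libraries. Both ferritin mRNAs together took 0.713% to 0.790% of reads in mimic libraries and 0.898% to 0.974% in control libraries. These ratios were chosen after the values had been seen, restate the values above and carry no test. A shift that follows GC content or exon length does not cancel in them. TFRC (42.6%, 5012 bases) differs in both from FTH1 (50.1%, 1203 bases) and FTL (56.3%, 871 bases). Huh7 fold changes followed GC content and, less closely, exon length, as described next, and their part in the ratios was not tested. In MHCC97H the TFRC ratio was 10.9, 8.74 and 15.4 with pGreen-628 and 10.5, 10.2 and 10.2 with the vector. These groups overlapped, and the ratio varied widely among pGreen-628 libraries, which share a treatment.

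**Figure D2:**
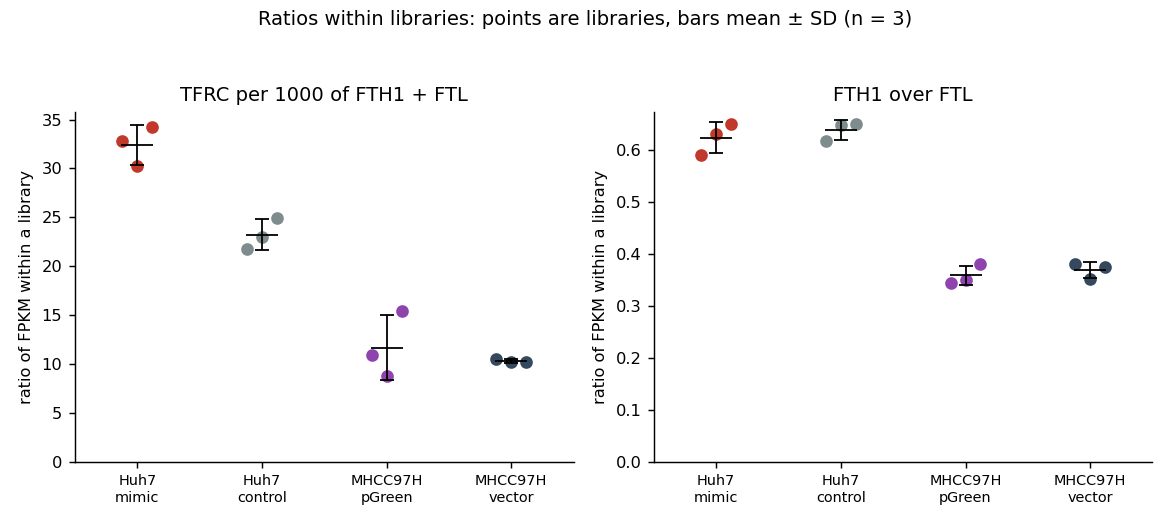
Within-library ratios of FPKM (y axes, from 0) in the 4 groups (x axis): TFRC per 1000 of FTH1 plus FTL on the left, FTH1 over FTL on the right, with 1 point per library and bars for mean ± SD (n = 3). The left ratio is 30.2 to 34.2 in Huh7 mimic libraries, against 21.8 to 24.9 in Huh7 controls, while the right ratio separates the lines rather than the treatments. In MHCC97H the left ratio overlaps between the groups and is spread from 8.74 to 15.4 within pGreen-628.

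Transcript base composition moved with the Huh7 fold changes. Over 12452 genes the log2 fold change and transcript GC content had a Spearman correlation of -0.727, across genes that are not independent replicates. With exon length the correlation was weaker, at 0.298 over the 12508 genes tested. TFRC and SLC40A1 have a GC content of 42.6% and 42.4%, below the median of 47.4%, and FTH1 and FTL have 50.1% and 56.3%, above it. Each library was then corrected for GC content and exon length without regard to its group. The log2 fold change became 0.09 for TFRC (adjusted p = 0.277, limma), -0.19 for FTH1 (adjusted p = 0.117) and -0.07 for FTL (adjusted p = 0.519). None of the 10 genes was called. The 3 at an unadjusted p under 0.05 were TF, TFR2 and FTH1, so TFRC and FTL were not among them. That correction left 0.00803% of all genes called, which is 1 gene. Without the filter on low values, or with any 1 of the 6 libraries left out, none of the 3 calls held; the adjusted p then lay between 0.0531 and 0.106 for TFRC, 0.0539 and 0.0720 for FTH1, and 0.0828 and 0.121 for FTL without a library. TFRC also lost its call without the variance trend, FTL with median rescaling or quantile normalization, and both in a fit over all 12 libraries.

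**Figure D3:**
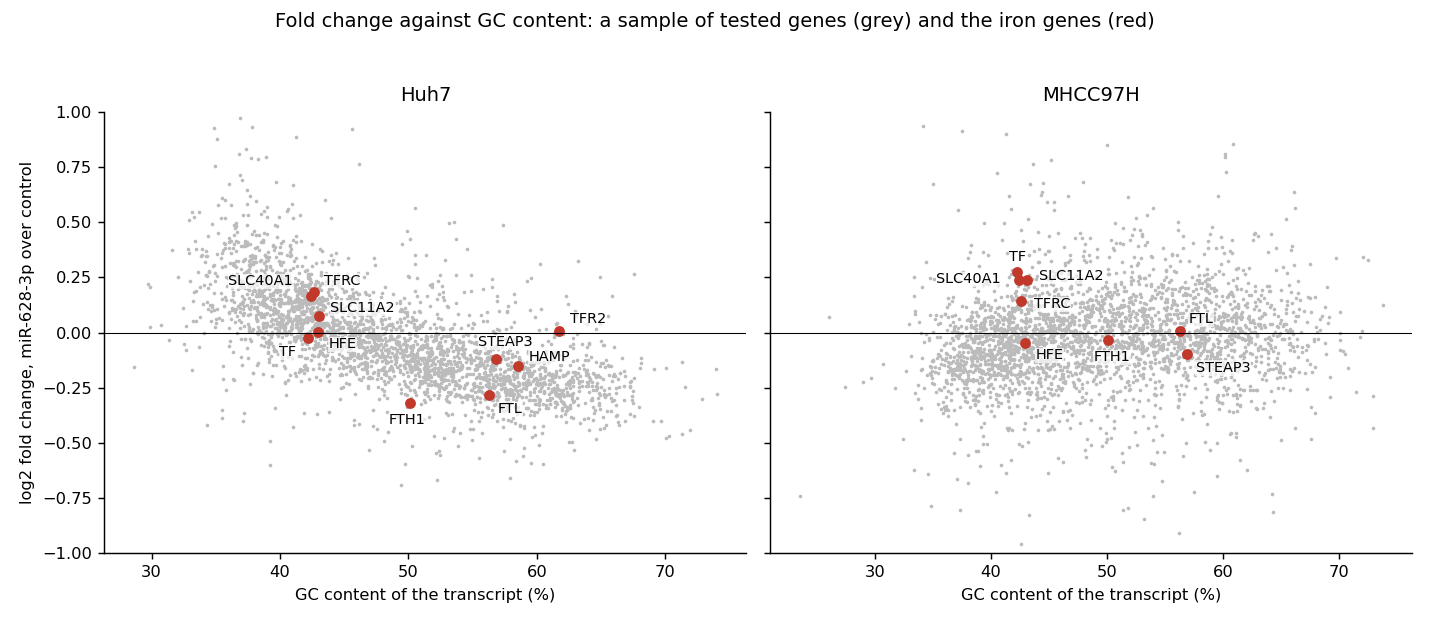
Log2 fold change, miR-628-3p over control (y axis, cut at -1 and 1, which leaves out 5 and 8 grey points), against the GC content of the transcript in percent (x axis) in Huh7 (left) and MHCC97H (right). Grey points are 2996 sampled genes per line and red points the iron genes; in Huh7 fold changes slope downward with GC content (correlation -0.727 over all genes) and in MHCC97H they do not (0.169).

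The genes whose levels followed the 3 called genes most closely were sought among 11133 protein-coding genes, by Pearson correlation of log2(FPKM + 1) over the 12 libraries after subtracting the mean of each line. For TFRC these were CALU (r = 0.979), USP12 (0.975) and ANP32E (0.966). For FTH1 they were ALDH2 (0.982), IDH3G (0.982) and CFL1 (0.981), and for FTL they were GRHPR (0.983), TPI1 (0.982) and SSR4 (0.982). Such values were common, since even the gene ranked 100th had r = 0.899 for TFRC, 0.942 for FTH1 and 0.939 for FTL.

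In MHCC97H, where pGreen-628 was set against the empty vector, no iron gene was called. By limma 0 of the 8 tested genes passed, with 3 at an unadjusted p under 0.05 (TF, SLC11A2 and SLC40A1), all with higher means in pGreen-628 cells. Voom, the limma method for read counts, also called 0. The share called among all 12670 genes tested was 5.37%. The median log2 fold change of the 8 genes was 0.08, against -0.04 over all genes tested.

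TF had 6.02, 7.62 and 7.10 FPKM in pGreen-628 libraries and 5.55, 5.67 and 5.34 FPKM in vector libraries. The groups did not overlap, as held for 2 of the 8 genes, both higher with pGreen-628, and for 30.0% of all genes tested (12.2% higher), and the log2 fold change was 0.27 (SE 0.091, adjusted p = 0.129). Hepatocyte markers did not move together beside it: of 6 tested, ALB was called higher, FGB was called lower and the median log2 fold change was 0.02. Without ALB the other 7 markers summed to 19.4 to 21.1 FPKM with pGreen-628 and 20.4 to 22.6 FPKM with the vector. SLC11A2 was the other gene without overlap, with 29.1, 29.9 and 33.3 FPKM in pGreen-628 libraries and 25.2, 26.7 and 25.8 FPKM in vector libraries (log2 fold change 0.24, SE 0.070, adjusted p = 0.0976). SLC40A1 had 69.7, 60.8 and 80.5 FPKM with pGreen-628 and 60.2, 55.6 and 61.4 FPKM with the vector; these groups overlapped (log2 fold change 0.24, adjusted p = 0.224). In both lines, then, the gene with the seed match had the higher mean with miR-628-3p, and it passed the test in neither line without a change of scaling or correction. TFRC (1.14-fold in Huh7, 1.11-fold in MHCC97H) and SLC11A2 (1.06-fold and 1.19-fold), without the match, also had higher means in both lines.

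The 3 genes called in Huh7 varied more among pGreen-628 libraries than among vector libraries. TFRC had 141, 121 and 160 FPKM with pGreen-628 and 127, 128 and 125 FPKM with the vector (log2 fold change 0.14, adjusted p = 0.451). FTH1 had 3307, 3583 and 2864 FPKM with pGreen-628 and 3315, 3265 and 3359 FPKM with the vector. FTL had 9596, 10228 and 7531 FPKM with pGreen-628 and 8714, 9295 and 8971 FPKM with the vector. All 3 pairs of groups overlapped. Library 3 of pGreen-628 was the highest of its group for TFRC, SLC40A1 and SLC11A2 and the lowest for both ferritin chains. Library 2 lay at the opposite end of the group for TFRC, SLC40A1 and both ferritin chains, with library 1 between them.

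HFE and STEAP3 also overlapped between the groups. HFE had 2.96, 2.49 and 2.59 FPKM with pGreen-628 and 2.63, 2.79 and 3.00 FPKM with the vector. STEAP3 had 17.8, 20.8 and 16.6 FPKM with pGreen-628 and 18.6, 20.3 and 20.1 FPKM with the vector. HAMP and TFR2 were too low to test: HAMP had 1, 1 and 0 reads with pGreen-628 and 4, 1 and 1 reads with the vector, and TFR2 had 1, 1 and 0 reads with pGreen-628 and none with the vector.

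In this line the log2 fold change had a Spearman correlation of 0.169 with GC content and of 0.202 with exon length. Both were weaker than in Huh7 (-0.727 and 0.298). After the correction for GC content and length, 3 of the 8 genes were called higher with pGreen-628, beside 16.3% of all genes. They were SLC40A1 (log2 fold change 0.30, adjusted p = 0.0122), SLC11A2 (0.26, adjusted p = 0.0147) and TFRC (0.16, adjusted p = 0.0483). TF was not called then (0.22, adjusted p = 0.307).

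**Figure D4:**
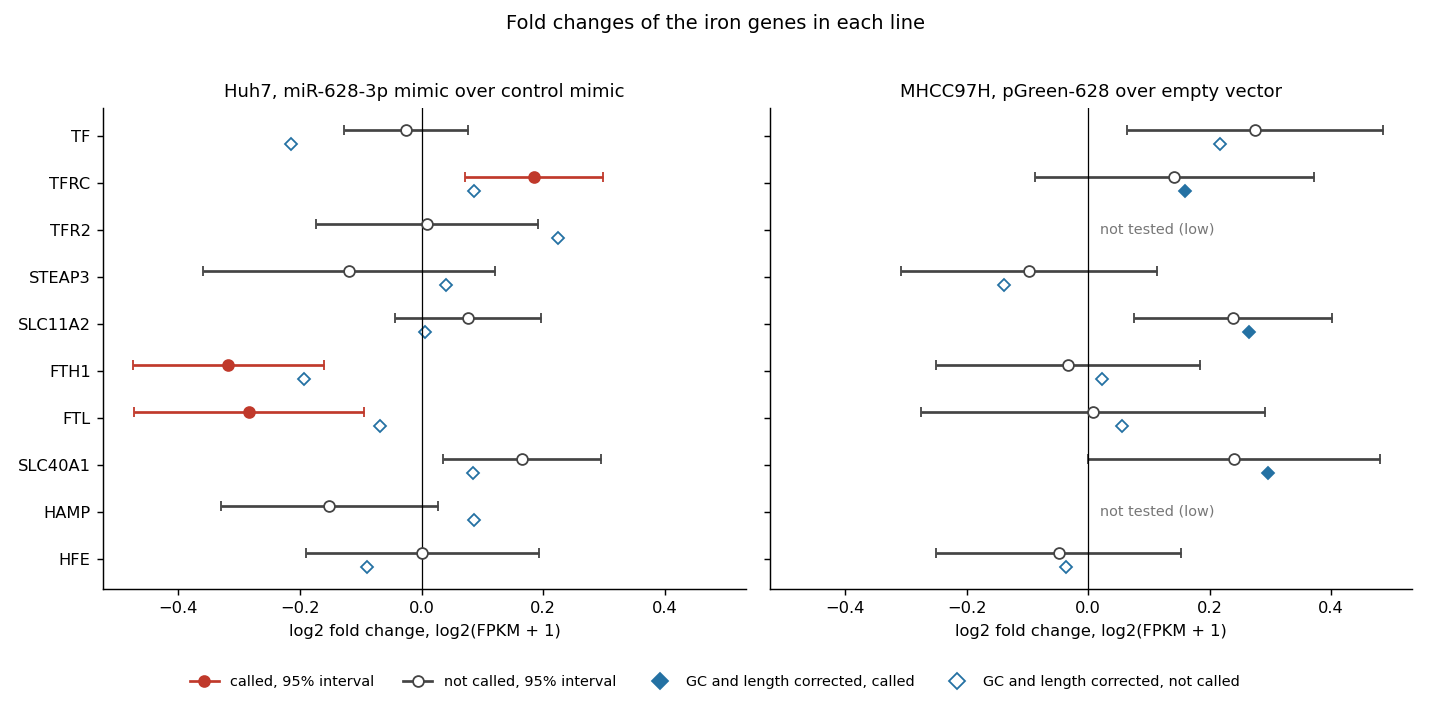
Log2 fold changes of the iron genes on the log2(FPKM + 1) scale (x axes), miR-628-3p mimic over control mimic in Huh7 (left) and pGreen-628 over empty vector in MHCC97H (right), with circles and 95% intervals for the uncorrected test and diamonds for values corrected for GC content and length. Filled symbols passed an adjusted p under 0.05: TFRC, FTH1 and FTL in Huh7 before correction, and SLC40A1, SLC11A2 and TFRC in MHCC97H after it.

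Whether the effect differed between the lines was tested directly as the MHCC97H fold change minus the Huh7 fold change in a fit of all 12 libraries. None of the 10 genes was called by limma, with 2 at an unadjusted p under 0.05 (TF and FTH1), and voom called 1, TF; of all genes 12.9% were called. TF came nearest, with log2 fold changes of 0.27 in MHCC97H and -0.03 in Huh7 (difference 0.30, SE 0.095, adjusted p = 0.0569). FTH1 had -0.03 in MHCC97H and -0.32 in Huh7 (difference 0.28, adjusted p = 0.103), and FTL had 0.01 and -0.28 (difference 0.29, adjusted p = 0.188). For TFRC the difference was -0.04, with a 95% interval from -0.29 to 0.21. HAMP and TFR2 entered this fit only through their Huh7 levels. With the GC and length correction 1 gene was called, SLC11A2 (0.26, adjusted p = 0.0241), beside 15.2% of all genes. Leaving out pGreen-628 library 3 brought FTH1 (0.37, adjusted p = 0.00922), FTL (0.42, adjusted p = 0.0122) and TF (0.28, adjusted p = 0.0443) past the threshold. In that fit 4670 of all 13178 genes tested were called, so these calls are near the share of the whole transcriptome. Leaving out pGreen-628 library 1 brought TF past the threshold (0.38, adjusted p = 0.0169), beside 831 of all 13171 genes tested. With pGreen-628 library 2 left out, none of the 10 genes was called.

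Between the control groups, MHCC97H with empty vector against Huh7 with control mimic, 7 of the 10 genes were called, beside 82.0% of all genes. TF, TFRC, TFR2 and HAMP were lower in MHCC97H, beside 40.9% of all genes, and STEAP3, SLC11A2 and FTL were higher, beside 41.1%. HAMP and TFR2 passed the filter of this fit through Huh7 alone, so their 2 calls follow from the filter and the counts of reads describe them instead. TF averaged 5.52 ± 0.165 FPKM in MHCC97H and 124 ± 1.61 FPKM in Huh7 (SD, n = 3 each), a level 22.5 times as high in Huh7 (95% counting interval 21.9 to 23.1). HAMP had 6 reads over the 3 MHCC97H libraries and 2230 over the 3 Huh7 libraries, 367 times as much per length and depth in Huh7 (interval 169 to 1002). TFR2 had 0 reads in MHCC97H and 589 in Huh7, so its level was at least 194-fold lower in MHCC97H, with the floor set at 3 reads over the group.

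Uptake and storage genes shifted less. TFRC was lower in MHCC97H, at 126 ± 1.25 FPKM, against 215 ± 7.87 FPKM in Huh7 (log2 difference -0.76, adjusted p = 1.98e-06). STEAP3 was 5.08 times as high in MHCC97H, at 19.7 ± 0.912 FPKM, against 3.87 ± 0.161 FPKM in Huh7, and SLC11A2 stood at 25.9 ± 0.791 FPKM, against 15.3 ± 0.516 FPKM. FTL was higher in MHCC97H, at 8994 ± 291 FPKM, against 5654 ± 335 FPKM in Huh7 (log2 difference 0.67, adjusted p = 6.83e-05), while FTH1, at 3313 ± 47.1 FPKM against 3603 ± 105 FPKM, was not called (adjusted p = 0.174). The ratio of FTH1 to FTL was accordingly 0.380, 0.351 and 0.374 in MHCC97H vector libraries and 0.616, 0.647 and 0.650 in Huh7 control libraries. SLC40A1 (59.1 ± 3.08 against 51.8 ± 2.06 FPKM) and HFE (2.81 ± 0.181 against 2.40 ± 0.261 FPKM) were not called.

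Ordered over all 4 groups by mean FPKM, TFRC ran from Huh7 mimic through Huh7 control and pGreen-628 to the MHCC97H vector, with only the last 2 overlapping. FTL ran from pGreen-628 and the vector, which overlapped, down through Huh7 control to Huh7 mimic. Ferritin light chain was the most abundant mRNA of the set per length in every group, ahead of the heavy chain. Line and the way the control was delivered cannot be told apart in this comparison, nor, in bulk RNA, can fewer cells that express a gene and less RNA per cell. The hepatocyte marker sums given above separate the lines as TF, HAMP and TFR2 do, and their part in these differences was not tested.

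Around the 10 genes, 118 others of iron biology were grouped in 5 lists and the ferritin pseudogenes. In Huh7, 20 of the 72 tested were called, 4 higher and 16 lower, beside 21.1% of all genes, and after correction for GC content and length 0 of them were called. Among regulators of iron mRNAs and ferritin turnover, 3 of 6 were called. IREB2, iron regulatory protein 2, was higher at 33.0, 33.6 and 36.7 FPKM in mimic libraries against 26.6, 31.4 and 28.96 FPKM in control libraries (log2 fold change 0.24, adjusted p = 0.0470). PCBP1 and PCBP2, which hand iron to ferritin, fell by 0.26 and 0.30 on the log2 scale. After the GC and length correction the log2 fold change was 0.02 for IREB2 (adjusted p = 0.792, limma), -0.08 for PCBP1 and -0.24 for PCBP2. ACO1, iron regulatory protein 1, averaged 10.3 FPKM in both groups.

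Of the genes that set hepcidin transcription, 13 of 17 could be tested in Huh7. The BMP receptor BMPR1A (log2 fold change 0.26) and the signal carrier SMAD5 (0.23) rose while the protease FURIN (-0.32) and the inhibitor SMAD6 (-0.26) fell. After the GC and length correction the values were 0.18 for BMPR1A, -0.02 for SMAD5, -0.12 for FURIN and -0.07 for SMAD6, none of them called. Of 14 tested genes of other iron and heme transport only CP was called, and not after the correction (log2 fold change 0.33, adjusted p = 0.126, limma). CP, ceruloplasmin, the ferroxidase that loads iron onto transferrin, had 104, 97.7 and 102 FPKM in mimic libraries and 55.5, 80.3 and 80.1 FPKM in control libraries (log2 fold change 0.51, adjusted p = 0.0366).

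Heme synthesis and breakdown had 6 of 13 genes called in Huh7, all lower, where 14.4% of all genes were called lower and where 0 of the 6 were called after the GC and length correction. They were UROS, UROD and CPOX of the synthesis pathway, HMOX1 and BLVRB of breakdown, and HPX, which binds free heme in plasma. HMOX1, heme oxygenase 1, which frees iron from heme, had 14.6, 16.7 and 16.01 FPKM in mimic libraries and 20.6, 21.1 and 19.3 FPKM in control libraries (log2 fold change -0.34, adjusted p = 0.0277). The median of this list was -0.17 and 0.01 after the GC and length correction, against -0.05 and -0.01 over all genes tested. Iron-sulfur cluster assembly had 3 of 18 tested genes called, all lower and a share near the 14.4% of all genes: NUBP2 (-0.44), GLRX5 (-0.33) and CIAO2B (-0.24). None of them was called after the correction.

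The ferritin calls cannot be fully separated from the processed pseudogenes of these genes. Of 41 listed copies 8 were tested in Huh7 and 3 were called, all lower, beside 14.4% of all genes, and 0 were called after the GC and length correction. FTH1P7, the most abundant heavy chain copy, had 38.7, 41.1 and 44.2 FPKM in mimic libraries and 62.2, 51.6 and 56.0 FPKM in control libraries (log2 fold change -0.44, adjusted p = 0.0272). FTLP3, the most abundant light chain copy, had 8.23, 6.75 and 9.19 FPKM in mimic libraries and 13.7, 13.4 and 9.66 FPKM in control libraries (log2 fold change -0.55, adjusted p = 0.0374). The labels and notes do not say how reads matching both a gene and a copy were counted, so levels of both are uncertain by reads shared between them.

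**Figure D5:**
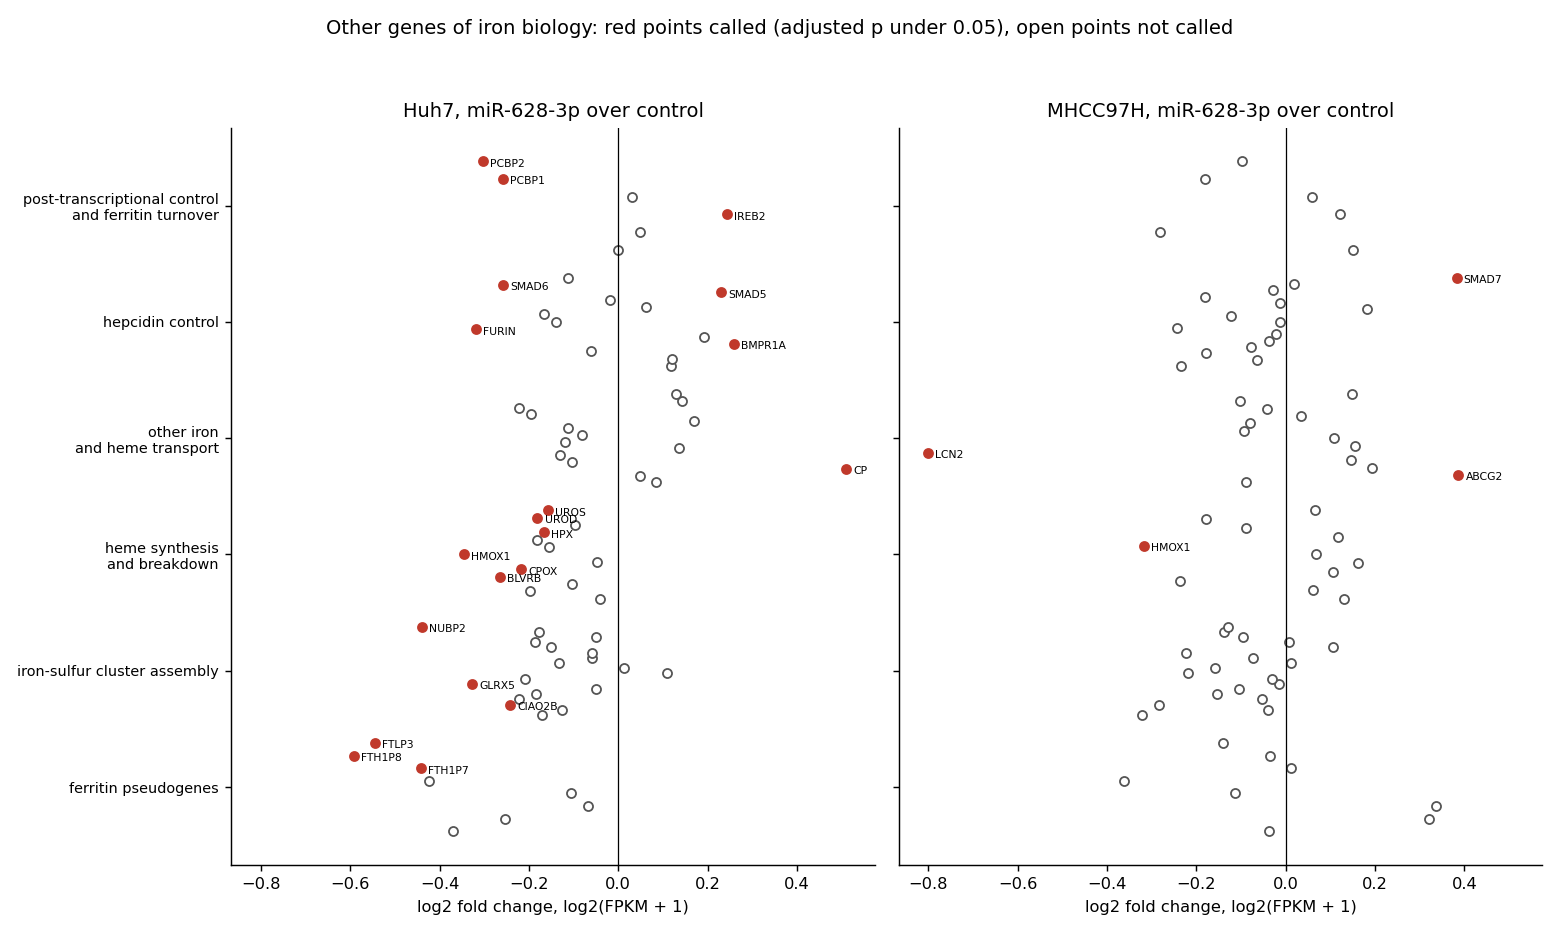
Log2 fold changes on the log2(FPKM + 1) scale (x axes) of the tested genes in 5 iron lists and the ferritin pseudogenes (rows), miR-628-3p over control in Huh7 (left) and MHCC97H (right). Red points passed an adjusted p under 0.05: 20 genes in Huh7, 16 of them lower, and 4 in MHCC97H.

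In MHCC97H 4 of the 71 tested genes around the set were called, beside 5.37% of all genes. LCN2, lipocalin 2, which binds iron-carrying siderophores, had 25.3, 30.8 and 25.5 FPKM in pGreen-628 libraries and 47.3, 46.7 and 49.8 FPKM in vector libraries, without overlap (log2 fold change -0.80, adjusted p = 0.00374). ABCG2, an exporter whose substrates include heme, was higher at 69.2, 61.7 and 71.0 FPKM with pGreen-628 against 51.5, 51.5 and 50.4 FPKM with the vector (0.39, adjusted p = 0.0226). SMAD7, an inhibitor of BMP signalling to HAMP, was higher at 4.83, 4.64 and 5.31 FPKM against 3.66, 3.55 and 3.41 FPKM (0.38, adjusted p = 0.0342).

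HMOX1 was the only gene called in the same direction in both lines among those around the set, at 209, 219 and 224 FPKM with pGreen-628 against 256, 294 and 264 FPKM with the vector (log2 fold change -0.32, adjusted p = 0.0453). Its fold changes in MHCC97H and Huh7 differed by 0.03 (SE 0.094, adjusted p = 0.856). The call was lost in both lines after the GC and length correction, at -0.27 in MHCC97H (adjusted p = 0.0664) and -0.13 in Huh7 (adjusted p = 0.185). LCN2, ABCG2 and SMAD7, in contrast, differed between the lines by -0.94, 0.34 and 0.49 (adjusted p = 0.00730, 0.0239 and 0.0194). After the correction all 3 were still called within MHCC97H, while the difference between the lines was called for LCN2 (-1.09, adjusted p = 0.000777) and ABCG2 (0.58, adjusted p = 0.000693) but not for SMAD7 (0.31, adjusted p = 0.0925). Among regulators of iron mRNAs the smallest p in MHCC97H belonged to FBXL5, which marks iron regulatory proteins for degradation (-0.28, adjusted p = 0.0612), and ACO1 (0.15, adjusted p = 0.173). Among iron-sulfur genes HSPA9 (-0.22, adjusted p = 0.0753) and BOLA3 (-0.32, adjusted p = 0.111) had the smallest.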

How the data were processed

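The labels' protocols describe poly-A selection, dUTP stranded libraries and paired 150-base reads; no label or note says if counting used it. HISAT2, HISAT and HTSeq with GRCh38 are named per the submitters' processing notes. The deposited table holds FPKM, made by the authors, for 60664 genes annotated on GRCh38.p13 per the file headers. FPKM times exon length gave whole reads for 100% of values within 0.01, from which depth and read numbers were worked back.

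Each line was tested with limma 3.58.1 (R 4.3.3) on log2(FPKM + 1), eBayes with trend, over genes whose mean reached 1 FPKM, adjusted over all genes tested; the pseudocount shrinks the fold changes of low genes. The control contrast and the difference between lines used all 12 libraries. GC content came from the GENCODE release 29 transcript closest to the exon length, a choice made after seeing the data; the correction fits a spline (5 df each for GC and length) per library. Simulated data with 200 changed genes gave 94% of 2-fold and 71% of 1.5-fold changes back in Huh7 over 12560 genes, with 12 false calls. In MHCC97H they gave 99% and 91% over 12729, with 20 false calls. The simulation used 1 dispersion per line, from the control libraries alone, and held no trend with GC content or length, unlike the real libraries. By chi-square per degree of freedom, pGreen-628 libraries differed by 8.89 to 34.5 and vector libraries by 1.93 to 3.50. The MHCC97H rates may therefore be too high for the real data. The 3 iron genes called in Huh7 changed by less than 1.5-fold, so these rates do not cover changes of their size. Counting intervals and floors cover counting error only. A gene of the heme list is not reported here. The members and lists were chosen with earlier results of these data known. Named around them were up to 6 called genes per list (otherwise the 2 with the smallest p), the most abundant pseudogene of each ferritin, and 3 genes most like each called member. Markers of other cell types were summed per library: fibroblast markers reached 60.7 to 65.6 FPKM in Huh7 mimic and 43.5 to 55.2 FPKM in Huh7 control libraries (nearly all LUM and COL1A2) and at most 3.15 FPKM in MHCC97H; endothelial markers were 2.25 to 2.37 against 2.00 to 2.32 FPKM in Huh7 and 9.00 to 9.51 against 5.83 to 6.59 FPKM in MHCC97H (PECAM1 and KDR), and leukocyte markers at most 3.99 FPKM (nearly all CD14). Their part in the results was not tested.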

Additional observations from a re-analysis of the deposited data

How the results depend on the processing

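All counts are limma calls. In Huh7 the 3 called iron genes became 0 without the expression filter, with TFRC, SLC40A1 and FTH1 at an unadjusted p under 0.05. They became 0 with the GC and length correction, with TF, TFR2 and FTH1 unadjusted. The fit over 12 libraries called 1 (FTH1), and 0 to 0 were called with a library left out (3 or 4 unadjusted). Under the other alternatives 2 or 3 were called, not always the same genes. With quantile normalization they were TFRC, FTH1 and SLC40A1, without FTL. In MHCC97H the count of 0 became 3 with the GC and length correction and 2 in the fit over 12 libraries (TF and SLC11A2); it was 0 to 0 with a library left out (1 to 5 unadjusted). For the difference between lines the count of 0 became 1 with a minimum of 5 FPKM (TF), 1 with voom (TF) and 1 with the GC and length correction (SLC11A2), and lay between 0 and 3 with a library left out. The 7 genes that separated the lines were 6 to 9 under the alternatives. The other iron genes called became 0 in Huh7 and 10 in MHCC97H with the GC and length correction, where LCN2, ABCG2 and SMAD7 kept their calls and HMOX1 lost its call.

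The replicate numbers gave no clear pairing: the correlation of same-numbered libraries lay between -0.08 and 0.04 in Huh7 and between -0.09 and 0.30 in MHCC97H. With 3 libraries a group these values cannot exclude a pairing, which the labels neither state nor deny. With the replicate block 2 iron genes were called in Huh7 (FTH1 and FTL), 0 in MHCC97H (3 unadjusted), 1 for the difference (TF) and 7 between the lines, and 1187 genes in all in Huh7.

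Over all genes, the 2642 calls in Huh7 became 7 without the filter, 1 with the GC and length correction, 561 in the fit over 12 libraries, 1694 without the variance trend, and 0 to 1661 with a library left out. The 680 calls in MHCC97H became 326 without the filter, 2060 with the GC and length correction, 1584 in the fit over 12 libraries and 142 to 1604 with a library left out. The 1694 calls for the difference became 967 without the filter and 637 to 4670 with a library left out; the highest count came without pGreen-628 library 3.

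Log2 values that changed sign were all of genes not called. With the GC and length correction they were HAMP 0.086, HFE -0.090 and STEAP3 0.040 in Huh7, FTH1 0.024 in MHCC97H, and TFRC 0.068, HFE 0.048 and STEAP3 -0.16 for the difference. With quantile normalization they were TF 0.064 in Huh7 and FTH1 0.0024 between the lines, and with median rescaling FTH1 0.0082 in MHCC97H. With a library left out, TFR2 ran from -0.045 to 0.055 and HFE from -0.047 to 0.061 in Huh7, FTH1 from -0.11 to 0.055 and FTL from -0.081 to 0.14 in MHCC97H, and, for the difference, TFRC from -0.14 to 0.062, SLC40A1 from -0.026 to 0.17 and STEAP3 from -0.088 to 0.11. The cause of these changes was not tested beyond the settings named. Levels below the filter of 1 FPKM left HAMP and TFR2 untested in MHCC97H. Where tested, TFR2, HFE and, in Huh7, STEAP3 rest on 180 to 331 reads a library, so counting error adds to their spread.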
